A study of Mus musculus with 38 samples.

Results

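The matrix genes described here are the collagens other than the main fibrillar chains, the proteins that organise them, and the proteases and inhibitors that turn them over. They were chosen by symbol as the collagen (Col), matrix metalloproteinase (Mmp), tissue inhibitor of metalloproteinases (Timp), Adamts, lysyl oxidase (Lox), fibrillin (Fbn) and fibulin (Fbln) genes together with *Fn1*, *Lum*, *Dcn*, *Bgn*, *Postn*, *Hspg2*, *Nid1* and *Nid2*, and without *Col1a1*, *Col1a2*, *Col3a1*, *Mmp7* and *Mmp12*. The rule used no measured value and found 61 of the 10547 genes in the table. By role they are 4 minor fibrillar collagens, 9 basement membrane genes, 5 type VI collagen chains, 6 other collagens, 5 fibrillins and fibulins, 3 lysyl oxidases, 3 small proteoglycans, 2 adhesive glycoproteins, 10 matrix metalloproteinases, 3 TIMPs and 11 ADAMTS or ADAMTS-like genes.

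RNA was read with the GeoMx Digital Spatial Profiler, which releases barcoded probes from chosen areas of a tissue section and counts them, on formalin-fixed mouse liver. Each region of interest (ROI) lay around the ductular reaction at the portal tract or within the parenchyma, and was divided into segments by staining for pan-cytokeratin (PanCK), a cholangiocyte marker, and IBA1, a macrophage marker. The 38 segments came from 23 ROIs of WT and Trail.mye mice that had received a control (CON) diet or a diet with diethoxycarbonyl-1,4-dihydrocollidine (DDC), which injures the bile ducts. PanCK+ segments numbered 3 in WT CON, 4 in WT DDC, 4 in Trail.mye CON and 5 in Trail.mye DDC. Periportal IBA1+ segments numbered 2, 4, 4 and 5, and parenchymal IBA1+ segments 1, 2, 2 and 2, in the same order. All mice, aged 6 to 8 weeks per the study's methods, were on a schedule of 21 days in which 5-day rounds of the assigned diet alternated with 3-day rounds of chow, and the experiment ended on day 22. Trail.mye mice carry a conditional knock-out allele of *Tnfsf10*, the gene for the death ligand TRAIL, and Cre driven by *Lyz2*, which directs the deletion to myeloid cells such as macrophages and neutrophils. The labels give the WT group no further genotype. *Tnfsf10* was not analysed here, so that the deletion was not checked in these segments. No label names the mouse, section or slide of a segment. Segments of a group can therefore share an animal, and every p-value over segments given below is too small to stand for animals.

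Scar tissue in a cholestatic liver is laid down around the portal tracts, mostly by portal fibroblasts and hepatic stellate cells. The main fibrils are assembled with type V collagen, decorated by small leucine-rich proteoglycans, linked to cells by type VI collagen and cross-linked by lysyl oxidases, while type IV collagen, nidogens and perlecan build the basement membranes of ducts and vessels. Matrix metalloproteinases and ADAMTS proteases cut these proteins, and TIMPs inhibit them.

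Promoter windows of the genes on which the comparisons below turn are shown first, with the 250 bases before the start of an annotated transcript of each (RefSeq, GRCm38.p6), read 5′ to 3′ on the strand of the gene. The *Adamts9* window and window 2 of *Col18a1* lie within the annotated span of the gene, and the *Col6a3* window does so in part. Windows were found for 42 of the 61 genes. Capitals mark matches, on either strand, to the TATA box (TATAAA), the CCAAT box (CCAAT), the GC box (GGGCGG) or the AP-1 site (TGANTCA). *Bgn*, *Col6a3* and *Timp3* are shown because they rose with DDC in Trail.mye periportal IBA1+ segments, *Col18a1* because it fell there, and *Adamts9* and *Mmp15* because they were higher in PanCK+ segments.
*Bgn*, chrX:73483351-73483600, plus strand: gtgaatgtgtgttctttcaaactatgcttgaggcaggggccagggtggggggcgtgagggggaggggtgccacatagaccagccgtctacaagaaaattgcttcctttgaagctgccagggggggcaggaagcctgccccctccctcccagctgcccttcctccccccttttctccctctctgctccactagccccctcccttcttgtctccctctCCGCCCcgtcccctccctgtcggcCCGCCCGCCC
*Col6a3*, chr1:90843972-90844221, minus strand: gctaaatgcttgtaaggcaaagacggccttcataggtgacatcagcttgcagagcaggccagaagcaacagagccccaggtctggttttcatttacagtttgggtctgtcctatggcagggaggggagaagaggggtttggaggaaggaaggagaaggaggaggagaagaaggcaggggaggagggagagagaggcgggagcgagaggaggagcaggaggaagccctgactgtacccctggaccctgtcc
*Timp3*, chr10:86300162-86300411, plus strand: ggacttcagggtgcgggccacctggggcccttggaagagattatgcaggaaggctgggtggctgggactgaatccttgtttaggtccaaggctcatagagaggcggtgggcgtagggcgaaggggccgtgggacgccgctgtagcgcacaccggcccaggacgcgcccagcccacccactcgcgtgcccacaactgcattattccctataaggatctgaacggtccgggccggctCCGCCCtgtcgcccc
*Col18a1* (window 1), chr10:77166531-77166780, minus strand: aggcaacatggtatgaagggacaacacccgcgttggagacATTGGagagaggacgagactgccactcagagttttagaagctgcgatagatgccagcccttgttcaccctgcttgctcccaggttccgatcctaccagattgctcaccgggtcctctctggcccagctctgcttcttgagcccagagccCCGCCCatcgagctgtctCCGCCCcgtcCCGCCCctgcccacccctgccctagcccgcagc
*Col18a1* (window 2), chr10:77113706-77113955, minus strand: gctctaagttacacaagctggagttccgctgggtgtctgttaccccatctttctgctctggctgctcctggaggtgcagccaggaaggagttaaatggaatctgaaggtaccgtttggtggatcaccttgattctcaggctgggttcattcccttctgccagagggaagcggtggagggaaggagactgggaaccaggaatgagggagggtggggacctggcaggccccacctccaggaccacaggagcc
*Adamts9*, chr6:92943535-92943784, minus strand: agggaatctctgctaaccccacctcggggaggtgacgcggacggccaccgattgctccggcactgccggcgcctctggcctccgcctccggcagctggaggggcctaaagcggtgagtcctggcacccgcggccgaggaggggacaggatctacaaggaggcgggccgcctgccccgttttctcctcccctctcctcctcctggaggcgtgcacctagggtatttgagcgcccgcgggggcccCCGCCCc
*Mmp15*, chr8:95352046-95352295, plus strand: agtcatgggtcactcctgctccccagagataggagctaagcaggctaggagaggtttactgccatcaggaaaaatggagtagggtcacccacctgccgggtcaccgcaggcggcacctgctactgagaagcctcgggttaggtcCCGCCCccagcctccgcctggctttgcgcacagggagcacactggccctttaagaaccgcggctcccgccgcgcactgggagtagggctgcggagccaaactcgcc
A GC box match lay in the windows of 31 of the 42 genes (73.8%), beside 32.7% of all 32851 windows of 27025 genes. The windows were also richer in G and C than the rest, with a median of 62.4% for the 48 windows of matrix genes and 52.4% for all windows. A CCAAT box match was found for 11 of the 42 (26.2%), beside 33.8% of all windows, a TATA box match for 6 (14.3%), beside 12.4%, and an AP-1 site match for 3 (7.14%), beside 6.75%. A gene was counted if any of its windows held a match, while the shares beside it are of single windows, so that the units differ. The 27025 genes also include genes that are not among the 10547 measured here, and the shares among the measured genes were not computed. A match is a run of letters and not a site shown to be used.

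Values below are Q3-normalized counts, the authors' scaling of every segment to the same 75th percentile (10.5). The lowest count in the table is 1, and 27.2% of all values are at it, so that the normalized value of a gene at 1 count depends on the depth of its segment. Total counts ran from 20319 to 836971 per segment. In the 2 WT CON periportal IBA1+ segments, 47 and 48 of the 61 genes were at 1 count, which is 5.25 on the normalized scale. The segments of ROI 035 of a Trail.mye DDC liver stood apart in depth, with 836971 counts in PanCK+ and 568719 in IBA1+, and their negative probe read 43.1 and 27.8 counts, beside at most 6.08 in any other segment. In a probe assay of captured areas, fewer cells of a type and less RNA per cell cannot be told apart. The labelled cell types were checked against their markers. The 10 cholangiocyte markers summed to between 91.9 and 397 in PanCK+ and between 24.0 and 87.5 in IBA1+ segments, and the 10 macrophage markers to between 49.0 and 165 in PanCK+ and between 352 and 1150 in IBA1+ segments. Fibroblast and hepatocyte markers were present in both kinds of segment.

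The first comparison asks which matrix genes differed between DDC and control diet in periportal IBA1+ segments. In Trail.mye mice, 29 of the 61 genes rose and 1 fell (edgeR's quasi-likelihood test, Benjamini-Hochberg adjusted p under 0.05 over 10547 genes), where 4.2% of all genes rose, 5.18% fell and 9.38% passed in either direction. The median log2 fold change of the 61 was 0.88, and that of all genes was 0.07. The genes that rose include every small proteoglycan and TIMP, 4 of the 5 type VI collagen chains and both type IV collagen chains of the common network. The gene that fell was *Col18a1*. The summed normalized count of the 61 genes was 502 to 650 in CON and 935 to 1514 in DDC segments, without overlap.

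**Figure D1:**
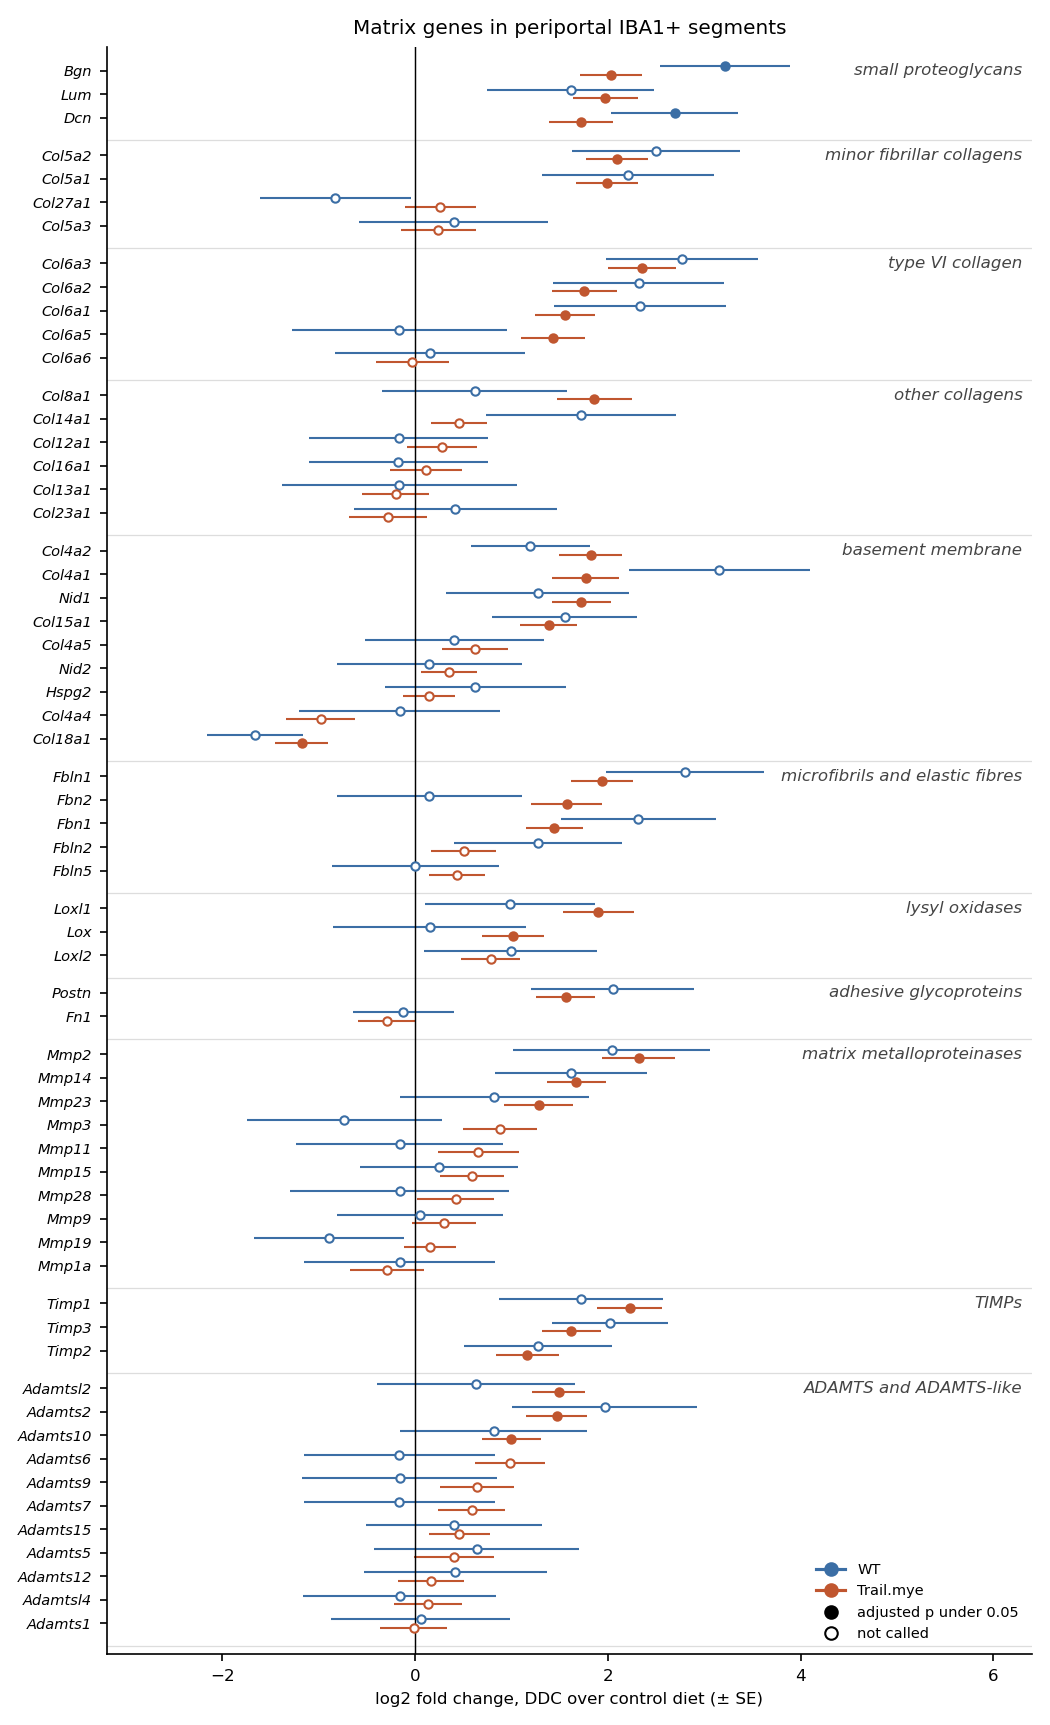
Log2 fold change of DDC over control diet, with its SE as a horizontal line, for the 61 matrix genes in periportal IBA1+ segments, grouped by role (blue WT, orange Trail.mye, filled points passed at an adjusted p under 0.05). Trail.mye has 29 filled points to the right of 0 and 1, *Col18a1*, to the left, and WT has 2 filled points with wider error lines.

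Among the small proteoglycans, biglycan (*Bgn*), which binds fibrils and can signal when released, read 22.8, 31.5, 30.2 and 26.3 in the 4 CON segments and 104, 102, 147, 84.2 and 138 in the 5 DDC segments. Every DDC segment was above every CON segment (log2 fold change 2.03, SE 0.32, adjusted p = 3.59e-06). Decorin (*Dcn*), which limits fibril width, read 29.8, 56.5, 32.8 and 44.6 in CON and 137, 80.0, 156, 107 and 194 in DDC segments (log2 fold change 1.72, SE 0.33, adjusted p = 0.000124). The groups of *Dcn* did not overlap, and the lowest DDC segment was that of ROI 033. Lumican (*Lum*), which spaces fibrils, read 5.25, 13.1, 7.22 and 7.88 in CON and 31.5, 17.8, 39.4, 21.8 and 58.5 in DDC segments (log2 fold change 1.97), again without overlap.

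Type VI collagen forms beaded filaments between cells and fibrils, and *Col6a3*, its longest chain, had the largest log2 fold change of the 61. *Col6a3* read 8.75, 13.1, 10.5 and 7.88 in CON and 56.2, 21.0, 81.4, 34.9 and 70.5 in DDC segments (log2 fold change 2.35, SE 0.35, adjusted p = 1.44e-06). All 5 DDC segments exceeded the CON segments, but they ranged widely, with ROI 033 lowest and ROI 034 highest. Its partners *Col6a1* (1.56) and *Col6a2* (1.75), which are neighbours on chromosome 10, and *Col6a5* (1.43) also rose, while *Col6a6* did not pass (-0.03). Of the minor fibrillar collagens, *Col5a1* (1.99) and *Col5a2* (2.09), whose products nucleate type I fibrils, rose, and *Col5a3* (0.24) and *Col27a1* (0.26) did not pass.

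In the basement membrane group, *Col4a2* (1.82), *Col4a1* (1.77), *Nid1* (1.72) and *Col15a1* (1.38) rose. The 2 type IV chains are encoded head to head on chromosome 8 and overlap by 85 bases in the annotation. *Col4a1* read 14.0, 15.8, 25.6 and 10.5 in CON and 55.0, 33.9, 89.3, 39.2 and 81.8 in DDC segments. *Hspg2*, which encodes perlecan, stayed at a log2 fold change of 0.14 and did not pass, nor did *Nid2* (0.35), *Col4a4* (-0.98) and *Col4a5* (0.62). *Col18a1*, whose C-terminal fragment is endostatin and which hepatocytes are known to make, read 64.8, 57.8, 49.2 and 47.3 in CON and 26.0, 30.7, 21.0, 15.7 and 29.3 in DDC segments. It was lower in every DDC segment than in any CON segment (log2 fold change -1.18, SE 0.28, adjusted p = 0.0021). The summed count of 9 hepatocyte markers moved with it, at 9993 to 13768 in CON and 1113 to 3451 in DDC segments, and the part of those cells in the fall of *Col18a1* was not tested.

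Among the elastic fibre genes, *Fbln1* (1.94), *Fbn2* (1.57) and *Fbn1* (1.44) rose, and *Fbln2* (0.51) and *Fbln5* (0.43) did not pass. The cross-linking enzymes *Loxl1* (1.90) and *Lox* (1.01) rose, and *Loxl2* (0.78) did not pass. *Lox*, among the smallest changes that passed, read 3.50, 3.94, 7.22 and 1.31 in CON and 12.4, 8.89, 9.19, 9.51 and 6.75 in DDC segments (adjusted p = 0.0418), and its groups overlapped. Of the other collagens 1 of 6 rose, the short-chain *Col8a1* (1.86), while the fibril-associated *Col14a1* had a log2 fold change of 0.46 without passing. The adhesive protein periostin (*Postn*, 1.56) rose. Fibronectin (*Fn1*), which hepatocytes secrete in quantity, had a log2 fold change of -0.30 and an adjusted p of 0.651.

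On the side of turnover, 3 of 10 metalloproteinases rose. *Mmp2*, the gelatinase of fibroblasts, read 1.75, 14.4, 2.63 and 5.25 in CON and 36.5, 9.70, 22.3, 33.9 and 38.3 in DDC segments (log2 fold change 2.32, SE 0.38, adjusted p = 9.57e-06). Its groups overlapped, since the highest CON segment was above the lowest DDC segment. *Mmp14* (1.67), the membrane protease that activates the *Mmp2* product, and *Mmp23* (1.28) rose, whereas *Mmp9*, the gelatinase of leukocytes, had a log2 fold change of 0.30 and did not pass. All 3 TIMPs rose, by 2.23 for *Timp1*, 1.62 for *Timp3* and 1.16 for *Timp2* on the log2 scale. *Timp1*, the inhibitor known for its induction in liver injury, read 3.50, 1.31, 3.94 and 3.94 in CON and 14.2, 13.7, 17.1, 14.9 and 21.0 in DDC segments. The groups were far apart, with every DDC segment above every CON segment. The negative probe read 2.89 to 3.33 on the same scale in the CON segments, so that the CON values of *Timp1* lay near or below it. Of the 61 genes, 34 were above the negative probe in all 4 of these CON segments. Of the 11 ADAMTS and ADAMTS-like genes, *Adamtsl2* (1.49), *Adamts2* (1.47) and *Adamts10* (1.00) rose, of which *Adamts2* trims the ends of fibrillar procollagens. *Adamts10* read 1.75, 7.88, 6.57 and 3.94 in CON and 7.41, 10.5, 16.4, 12.1 and 7.50 in DDC segments, and its groups overlapped. *Adamts1* did not pass (-0.02). After every segment had been thinned to the smallest total, 13 of the 61 genes passed in this comparison. The count over all 10547 genes went from 989 to 201. Total counts were 80721 to 220381 in CON and 158219 to 568719 in DDC segments, and the part of depth was not tested.

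**Figure D2:**
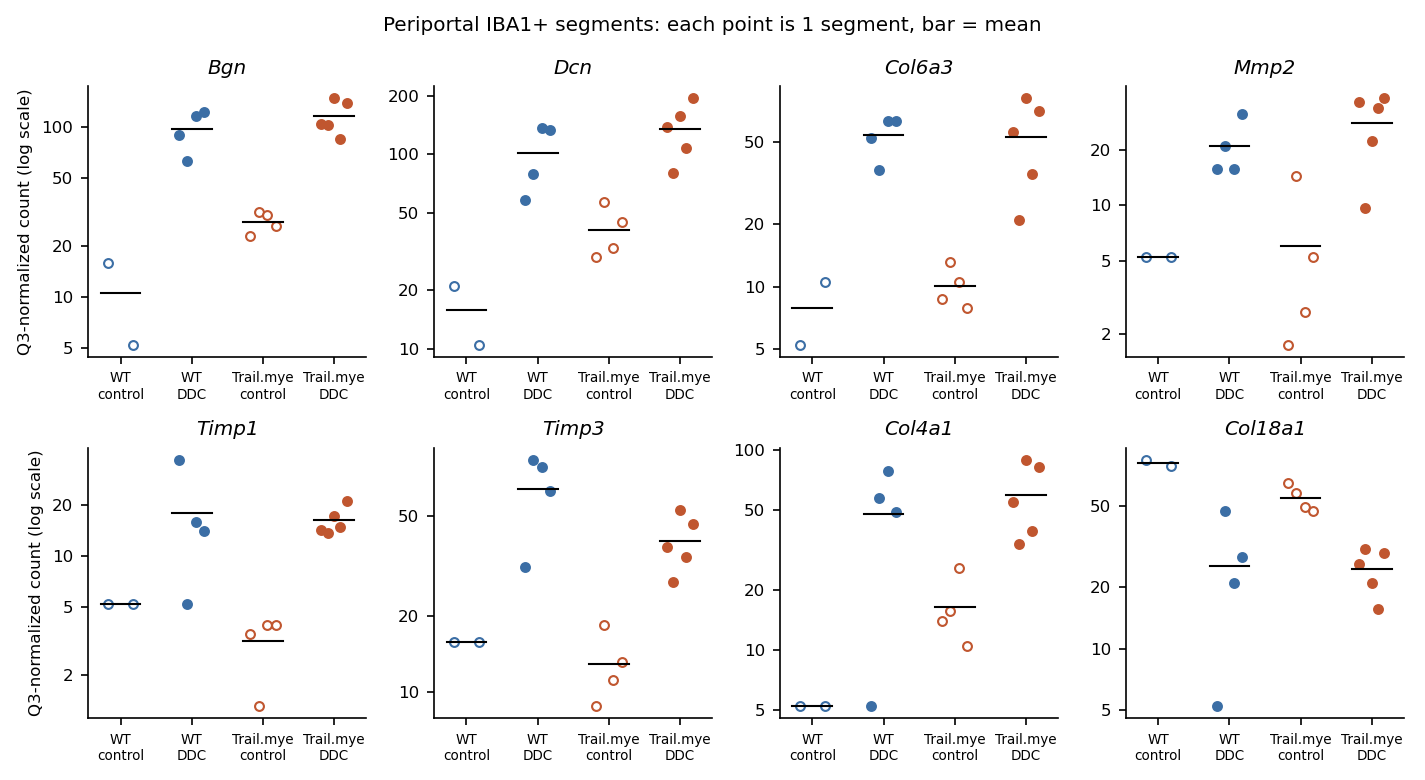
Q3-normalized counts (log scale) of 8 matrix genes in each periportal IBA1+ segment by genotype and diet (1 point = 1 segment, bar = group mean, open control diet, filled DDC). In Trail.mye mice the DDC points of *Bgn*, *Dcn*, *Col6a3*, *Timp1*, *Timp3* and *Col4a1* all lie above the control points, those of *Mmp2* overlap them and those of *Col18a1* lie below.

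In WT mice, 2 of the 61 genes rose in periportal IBA1+ segments and none fell, where 0.142% of all genes rose, 1.04% fell and 1.19% passed in either direction. These were both small proteoglycans. *Bgn* read 15.8 and 5.25 in the 2 CON segments and 89.3, 63.0, 116 and 123 in the 4 DDC segments (log2 fold change 3.21, SE 0.67, adjusted p = 0.00271). *Dcn* read 21.0 and 10.5 in CON and 57.8, 78.8, 137 and 133 in DDC segments (log2 fold change 2.69, SE 0.66, adjusted p = 0.0179). The groups did not overlap for either gene. At an unadjusted p under 0.05, 15 genes were higher and 1, *Col18a1*, was lower, where 5.09% of all genes were past it. Over the 61 genes the median log2 fold change was 0.62, beside -0.16 over all genes. It was 0.41 with the 12 genes that have a bound above 1-fold set at it. Other genes at 1 count in both CON segments gave no such bound and kept their fitted value.

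Several WT genes could be given only as bounds because both CON segments were at the lowest count. With a floor of 3 counts per segment, *Col4a1* was at least 3.03-fold, *Fbln1* at least 2.33-fold and *Col5a2* at least 1.89-fold higher with DDC, and none of the 3 passed. *Col6a3* read 5.25 and 10.5 in CON and 52.5, 36.8, 63.0 and 63.0 in DDC segments, with an adjusted p of 0.0643. *Timp3* had a log2 fold change of 2.02 (adjusted p = 0.0948). *Col18a1* read 84.0 and 78.8 in CON and 5.25, 47.3, 21.0 and 28.0 in DDC segments (adjusted p = 0.0952). These segments were shallower than those of Trail.mye mice, with 20319 to 35207 counts, and 2 were CON segments. Without the CON segment of ROI 005 the count of genes called was 0, without that of ROI 003 or the DDC segment of ROI 013 it was 1, and without the DDC segment of ROI 007 or 009 it was 4. With other tools and settings the count in either direction ran from 1 after thinning to 15 with limma and a pseudocount of 1. Over all genes these 2 settings called 214 and 434, beside 125 in the main fit. The 1 gene called after thinning was lower with DDC, and neither *Bgn* nor *Dcn* passed there. Of the 15 with limma, 14 were higher and 1 lower.

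Markers of fibroblasts and stellate cells that are not among the 61 genes moved with these calls. The summed count of all 12 (*Des*, *Pdgfrb*, *Pdgfra*, *Lrat*, *Reln*, *Cygb*, *Thy1*, *Vim*, *Acta2*, *Tagln*, *Sparc* and *Dpt*) was 73.5 to 89.3 in WT CON, 221 to 396 in WT DDC, 85.8 to 185 in Trail.mye CON and 276 to 436 in Trail.mye DDC periportal IBA1+ segments. In WT CON 7 of the 12 were at 1 count in both segments, while in Trail.mye DDC all 12 were above 1 count in every segment. With DDC, 11 of the 12 had a log2 fold change above 0 in WT (2 called higher) and 10 in Trail.mye (5 called higher) periportal IBA1+ segments. In the PanCK+ segments the sum was 60.4 to 130.3 in CON and 111 to 183 in DDC. Most of the list did not follow that sum. In each genotype 5 of the 12 were above 0 and 1 was called higher, with medians of -0.26 in WT and -0.05 in Trail.mye. The hepatocyte sum was 8687 to 13768 in CON and 1113 to 4890 in DDC periportal IBA1+ segments. Macrophage markers were at 511 to 1150 in CON and 352 to 889.9 in DDC. The sum of 8 endothelial markers was 73.5 to 113 in CON and 49.0 to 78.9 in DDC, that of 4 pericyte and smooth muscle markers 26.3 to 49.0 and 21.0 to 89.3, and that of 4 neutrophil markers 18.4 to 36.8 and 21.0 to 54.4. The part of any of these cell types in the calls was not tested.

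**Figure D3:**
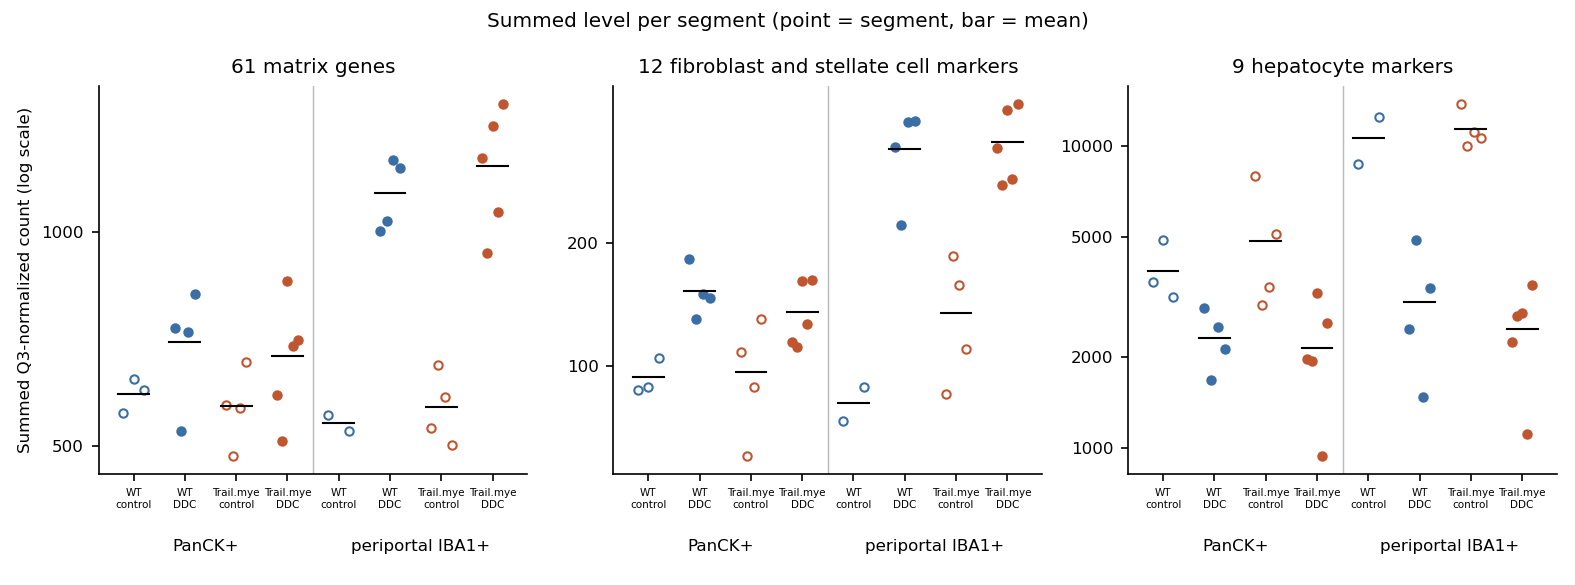
Summed Q3-normalized counts per segment (log scale) of the 61 matrix genes, 12 fibroblast and stellate cell markers and 9 hepatocyte markers in PanCK+ and periportal IBA1+ segments (1 point = 1 segment, bar = mean, open control diet, filled DDC). In periportal IBA1+ segments the DDC points of the first and middle panels lie above the control points, and those of the hepatocyte panel lie below.

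The same diet comparison in PanCK+ segments asks whether the matrix genes moved in the cholangiocyte areas. In WT mice none of the 61 passed in edgeR's quasi-likelihood test, where 0.91% of all genes did, and 4 were past an unadjusted p of 0.05, as were 6.4% of all genes. DESeq2 called 1, limma with a pseudocount of 1 called 3 (2 higher and 1 lower) and limma with a pseudocount of 0.5 called 2. Over all genes they called 149, 331 and 284. Medians were 0.06 over the 61 genes and -0.17 over all genes. *Col4a1* had a log2 fold change of 1.77 (adjusted p = 0.183). *Col5a2* was at 1 count in all 3 CON segments and was at least 1.41-fold higher with DDC, with the same floor of 3 counts per segment (adjusted p = 0.173).

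In Trail.mye mice 1 gene, *Hspg2*, rose in PanCK+ segments and none fell, where 1.43% of all genes rose, 0.664% fell and 2.1% passed in either direction. Perlecan is the large heparan sulfate proteoglycan of basement membranes. *Hspg2* read 14.0, 7.88, 5.25 and 2.10 in CON and 15.4, 11.9, 29.2, 16.5 and 19.7 in DDC segments (log2 fold change 1.48, SE 0.43, adjusted p = 0.0424). The groups overlapped, since the highest CON segment, of ROI 026, was above the DDC segment of ROI 033. The call was lost without the CON segment of ROI 027, 028 or 029 or the DDC segment of ROI 034 or 036, and without that of ROI 035 2 genes passed. Depth ran with the diet here, from 35078 to 54834 counts in CON and from 172180 to 836971 in DDC segments, and its part in the result was not tested. The 11 genes past an unadjusted p of 0.05 include *Col4a2* (1.21), *Col4a1* (1.07) and *Nid1* (1.14), none of which passed, and 11.3% of all genes were past that p. Markers of several cell types moved with the diet in the same Trail.mye PanCK+ segments. The cholangiocyte sum was 91.9 to 181 in CON and 211 to 328 in DDC, with 3 of 10 markers called higher. The macrophage sum was 49.0 to 105 and 111 to 165, with 2 of 10 called higher, and the hepatocyte sum was 2983 to 7931 and 940 to 3254, with 3 of 9 called lower. Pericyte and smooth muscle markers summed to 15.8 to 42.0 in CON and 68.9 to 181 in DDC. Of these 4 markers 2 were called higher, and only 2 had a log2 fold change above 0. The part of these cell types was not tested. The median log2 fold change was 0.22 for the 61 genes and 0.18 for all genes. *Bgn* (-0.45), *Dcn* (0.03), *Col6a3* (-0.03) and *Timp3* (-0.54), which rose in the IBA1+ segments of the same livers, did not pass.

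In parenchymal IBA1+ segments, with 3 CON and 4 DDC segments over both genotypes, edgeR called none of the 61, where 0.759% of all genes passed, and 6 were past an unadjusted p of 0.05, as were 6.45% of all genes. The lowest adjusted p was that of *Col4a2* (log2 fold change 1.48, SE 0.42, adjusted p = 0.115). Medians on the log2 scale were -0.12 over the 61 genes and -0.15 over all genes. *Bgn* (0.63), *Dcn* (0.36) and *Col6a1* (-0.84) did not pass. *Col6a3* read 5.25 in the WT CON segment, 3.50 and 3.00 in WT DDC, 5.25 and 2.76 in Trail.mye CON and 28.0 and 2.63 in Trail.mye DDC segments. Of the 4 DDC segments that of ROI 037 was high, and the rest lay near or below the CON values.

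The next comparison is that of the genotypes, which asks whether loss of TRAIL in myeloid cells went with a different level of these genes. Between Trail.mye and WT, edgeR called none of the 61 in DDC-fed PanCK+ segments (0.152% of all genes passed), DDC-fed periportal IBA1+ segments (0.019%), control-fed PanCK+ segments (0.218%) or control-fed periportal IBA1+ segments (0.199%). Before adjustment 5, 3, 1 and 1 of the 61 had a p under 0.05 in these 4 classes, where 9.23%, 2.38%, 2.59% and 2.65% of all genes did. Over the 29 best known of the 61 genes the log2 differences ran from -0.90 to 0.71 in DDC-fed PanCK+ and from -0.69 to 0.68 in DDC-fed periportal IBA1+ segments. Without the DDC-fed PanCK+ segment of ROI 035, 1 gene passed in that class. Total counts in that class were 46676 to 61665 in WT and 172180 to 836971 in Trail.mye segments. DESeq2 called none in DDC-fed periportal IBA1+ segments, and limma called 1 with either pseudocount, beside 20 (pseudocount 1) and 11 (0.5) of all genes. In those segments *Adamtsl2*, whose product binds microfibrils, had the largest value (log2 fold change 1.68, SE 0.46, adjusted p = 0.729). It was at 1, 1, 4 and 1 counts in the WT segments, so that its WT level is near the lowest count. Total counts there were 20319 to 34302 in WT and 158219 to 568719 in Trail.mye segments. Of the 61 genes, 21 to 35 were at 1 count in WT and 0 to 1 in Trail.mye segments. The part of depth in either class was not tested. In the DDC-fed periportal IBA1+ segments *Col6a3* differed by -0.05 (SE 0.34), *Bgn* by 0.22 (SE 0.31), *Timp1* by -0.14 (SE 0.37) and *Mmp2* by 0.39 (SE 0.42) on the log2 scale. The difference between the diet effects of the 2 genotypes passed for none of the 61 in PanCK+ (0.114% of all genes) or in periportal IBA1+ segments (0.0569%). At an unadjusted p under 0.05 it was 1 and 0 of the 61, where 3.85% and 1.92% of all genes were past it. The 29 genes that rose in Trail.mye and the 2 in WT are therefore not shown to differ in their response. For *Col6a3* the interaction was -0.42 (SE 0.99) and for *Bgn* -1.18 (SE 0.81).

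PanCK+ and IBA1+ segments of the same ROI were compared next, to place the matrix genes on the duct or the macrophage side of the portal tract. Over the 15 ROIs with both segments, and with the ROI as a block, 31 of the 61 genes were lower and 3 higher in PanCK+ than in IBA1+ segments, where 10.2% of all genes were lower, 7.67% higher and 17.8% passed in either direction. The median log2 fold change was -0.54 for the 61 genes and -0.03 for all genes. The 15 with the lowest values were *Fbln1* (-1.72), *Dcn* (-1.65), *Col6a1* (-1.58), *Col5a2* (-1.53), *Col6a2* (-1.43), *Lum* (-1.38), *Col14a1* (-1.37), *Col5a1* (-1.35), *Loxl2* (-1.32), *Mmp2* (-1.31), *Adamtsl2* (-1.24), *Col6a5* (-1.17), *Adamts2* (-1.16), *Bgn* (-1.15) and *Postn* (-1.13). The 3 higher genes were the ADAMTS protease *Adamts9* (1.96), the membrane metalloproteinase *Mmp15* (1.36), and *Hspg2* (0.76).

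In each of the 15 ROIs *Mmp15* was higher on the PanCK+ side. It read from 10.5 to 18.9 (median 15.8, n = 6) in PanCK+ and from 2.63 to 10.5 (median 6.57, n = 6) in IBA1+ segments of CON livers. In DDC livers it read from 13.7 to 29.8 (median 18.9, n = 9) in PanCK+ and from 5.25 to 15.8 (median 7.41, n = 9) in IBA1+ segments. *Adamts9* was higher in PanCK+ in 14 of 15 ROIs, at 5.25 to 31.5 (median 12.6, n = 6) against 1.75 to 5.91 (median 3.94, n = 6) in CON and from 17.3 to 35.2 (median 23.1, n = 9) against 3.28 to 7.93 (median 5.25, n = 9) in DDC livers. The PanCK+ and IBA1+ values of *Adamts9* did not overlap in DDC livers, where all 4 WT IBA1+ segments were at 1 count, and they met in CON livers. The fibroblast and stellate cell markers were also lower in PanCK+ than in IBA1+ segments of DDC livers, at the sums given above, and their part was not tested. The count of 34 was 24 with DESeq2, 21 and 19 with limma at pseudocounts of 1 and 0.5, and 12 after thinning. Over all genes these settings called 1284, 1373, 1330 and 378, beside 1881 in the main fit. A filter on low counts left 26 of the 61 genes, and 22 of them passed, as did 947 of all 2030 genes left.

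When the ROIs were taken by diet, an alternative added after the data had been seen, most of the calls came from the DDC livers. In the 6 control-fed ROIs 3 genes passed, *Adamts9* (log2 fold change 1.75, SE 0.37, adjusted p = 0.00291) and *Mmp15* (log2 fold change 1.46, SE 0.34, adjusted p = 0.0102) higher in PanCK+ and *Col18a1* (log2 fold change -1.14, SE 0.27, adjusted p = 0.0047) lower, where 1.4% of all genes were higher, 3.74% lower and 5.14% passed in either direction. The median over the 61 was -0.03. In the 9 DDC-fed ROIs 34 genes were lower and 4 higher in PanCK+, where 8.28% of all genes were lower, 7.86% higher and 16.1% passed in either direction, and the median was -0.65. The test of this difference, the interaction of segment class with diet, passed for 9 of the 61 (8 more negative and 1 more positive with DDC), where 0.417% of all genes were more negative, 1.73% more positive and 2.14% passed in either direction. At an unadjusted p under 0.05 it was 20, where 10.5% of all genes were past it.

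*Bgn* shows the change of side. In CON livers it was higher in PanCK+ in 5 of 6 ROIs, at 10.5 to 54.6 (median 35.9, n = 6) against 5.25 to 31.5 (median 24.5, n = 6) in IBA1+ segments, which did not pass (adjusted p = 0.209). In DDC livers it was higher in IBA1+ in 9 of 9 ROIs, at 63.0 to 147 (median 104, n = 9) against 14.7 to 44.6 (median 33.6, n = 9) in PanCK+ segments. The DDC values of the 2 classes did not overlap (interaction -2.42, SE 0.32, adjusted p = 1.56e-07).

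*Fbln1*, a glycoprotein of elastic fibres and basement membranes, had the largest interaction (-2.89, SE 0.46, adjusted p = 1.97e-05). It was higher in IBA1+ in 9 of 9 DDC ROIs and in 1 of 6 CON ROIs. In DDC livers it read from 19.4 to 47.3 (median 31.5, n = 9) in IBA1+ and from 2.10 to 9.32 (median 7.14, n = 9) in PanCK+ segments, again without overlap. *Col6a3* (-2.38), *Col5a1* (-2.30), *Timp3* (-2.07), *Mmp2* (-2.01), *Col6a2* (-1.96) and *Dcn* (-1.66) passed in the same direction. For *Dcn* the IBA1+ segment was higher in 5 of 6 CON and 9 of 9 DDC ROIs.

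*Col18a1* passed in the other direction (1.57, SE 0.31, adjusted p = 0.00121). It was higher in IBA1+ in 6 of 6 CON ROIs, at 47.3 to 84.0 (median 61.3, n = 6) against 21.0 to 47.3 (median 25.7, n = 6) in PanCK+ segments. In DDC livers it was higher in PanCK+ in 7 of 9 ROIs, at 12.6 to 52.5 (median 33.5, n = 9) against 5.25 to 47.3 (median 26.0, n = 9) in IBA1+ segments, and the groups overlapped. Hepatocyte markers moved with it, since 8 of the 9 were called higher in the same interaction (median 1.14), and their sum in PanCK+ segments was 2983 to 7931 in CON and 940 to 3254 in DDC. Their part was not tested. The interaction count of 9 was 2 after all segments had been thinned to the smallest total, where the count over all genes went from 226 to 10. It was 6 to 10 when 1 ROI was left out.

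**Figure D4:**
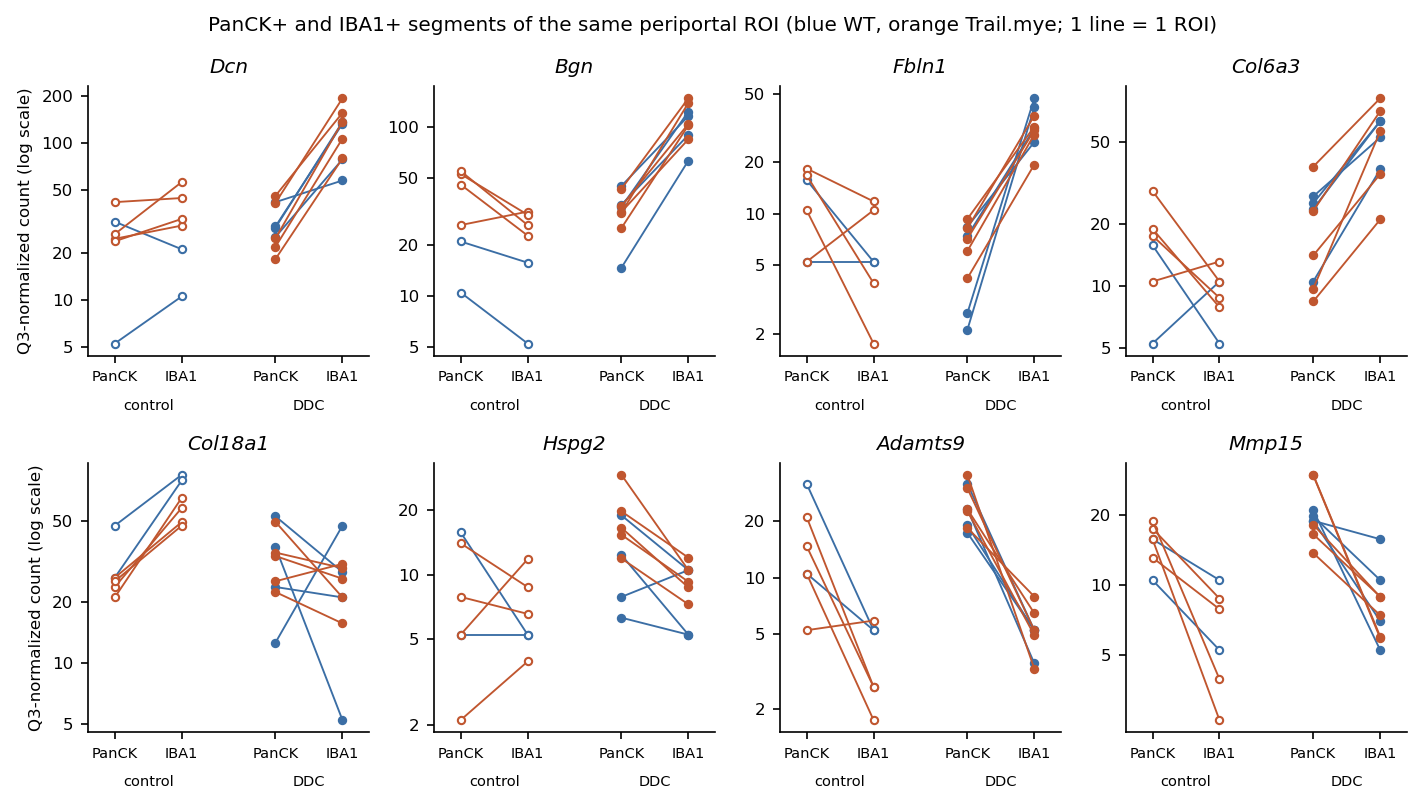
Q3-normalized counts (log scale) of 8 matrix genes in the PanCK+ and IBA1+ segments of the same periportal ROI, for CON (open) and DDC (filled) livers of WT (blue) and Trail.mye (orange) mice, with 1 line per ROI. Lines of *Bgn*, *Fbln1* and *Col6a3* rise to IBA1+ in all 9 DDC ROIs, and lines of *Mmp15* fall in all 15 ROIs.

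Periportal and parenchymal IBA1+ segments were compared to ask where around the macrophages the matrix genes lay. With a term for genotype and diet, 15 of the 61 genes were higher in periportal segments and none lower, where 0.882% of all genes were higher, 1.35% lower and 2.23% passed in either direction. The median log2 fold change was 0.52 for the 61 genes and 0.04 for all genes. The 15 were *Col6a3* (2.12), *Timp2* (2.05), *Fbln1* (1.98), *Col6a1* (1.57), *Fbn1* (1.55), *Col5a2* (1.52), *Timp3* (1.50), *Col6a2* (1.49), *Fbln5* (1.48), *Mmp2* (1.31), *Adamts2* (1.17), *Col4a2* (1.14), *Col4a1* (1.14), *Lum* (1.13) and *Bgn* (1.05). Without the WT DDC parenchymal segment of ROI 012 the count was 9, and after thinning it was 6. The count over all genes went from 235 to 77 with thinning. The 15 hold 3 type VI chains, 3 microfibril or elastic fibre genes, both common type IV chains and 2 TIMPs.

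*Timp2*, which both inhibits metalloproteinases and helps to activate the *Mmp2* product, read from 5.25 to 28.9 (median 17.1, n = 6) in periportal and from 5.25 to 6.42 (median 5.53, n = 3) in parenchymal segments of CON livers. In DDC livers it read from 17.8 to 56.3 (median 31.9, n = 9) in periportal and from 3.50 to 7.00 (median 4.88, n = 4) in parenchymal segments. The DDC values were far apart, but the 4 parenchymal DDC segments held 1, 3, 2 and 2 counts of *Timp2*, near the lowest count. The CON values overlapped at the low end. *Dcn* did not follow the other proteoglycans (-0.07, adjusted p = 0.991). It read from 57.8 to 69.7 (median 67.7, n = 3) in parenchymal and from 10.5 to 56.5 (median 31.3, n = 6) in periportal segments of CON livers, and from 60.0 to 94.5 (median 85.3, n = 4) and from 57.8 to 194 (median 133, n = 9) in DDC livers. In CON livers its parenchymal values were thus above every periportal value, although the difference did not pass (adjusted p = 0.363).

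Taken by diet, again as an alternative added after the data had been seen, none of the 61 passed in control-fed segments by edgeR (0.142% of all genes passed, and 8 of the 61 beside 6.38% of all genes were past an unadjusted p of 0.05) and 18 were higher in periportal DDC-fed segments (0.977% of all genes were higher, 1.85% lower and 2.83% passed in either direction). The medians were 0.19 and 1.10. The interaction with diet passed for 1 gene, *Timp3* (log2 fold change 2.82, SE 0.60, adjusted p = 0.021), where 0.0379% of all genes were more positive, 0.0474% more negative and 0.0853% passed in either direction, and at an unadjusted p under 0.05 it was 18, beside 7.03% of all genes. *Timp3*, the inhibitor that stays bound to the matrix, read from 27.5 to 84.0 (median 46.5, n = 9) in periportal and from 2.63 to 10.5 (median 6.50, n = 4) in parenchymal DDC segments. *Timp3* was at 2, 4, 3 and 1 counts in those 4 parenchymal segments, near the lowest count. In CON livers it read from 8.75 to 18.4 (median 14.4, n = 6) and from 5.25 to 16.9 (median 6.63, n = 3). This single call was absent with TMM factors and after thinning, while DESeq2 called 4 of the 61 genes (113 of all genes) and limma 6 (30). It was lost without the parenchymal segment of ROI 010, 012, 030 or 038 or the periportal segment of ROI 026, 028 or 029, and 2 genes passed without the periportal segment of ROI 009. Only 3 CON parenchymal segments enter it. Fibroblast and stellate cell markers moved with the place too, at 94.5 to 147 in DDC parenchymal segments beside the periportal sums given above, and hepatocyte markers were at 3785 to 14391 in those parenchymal segments.

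**Figure D5:**
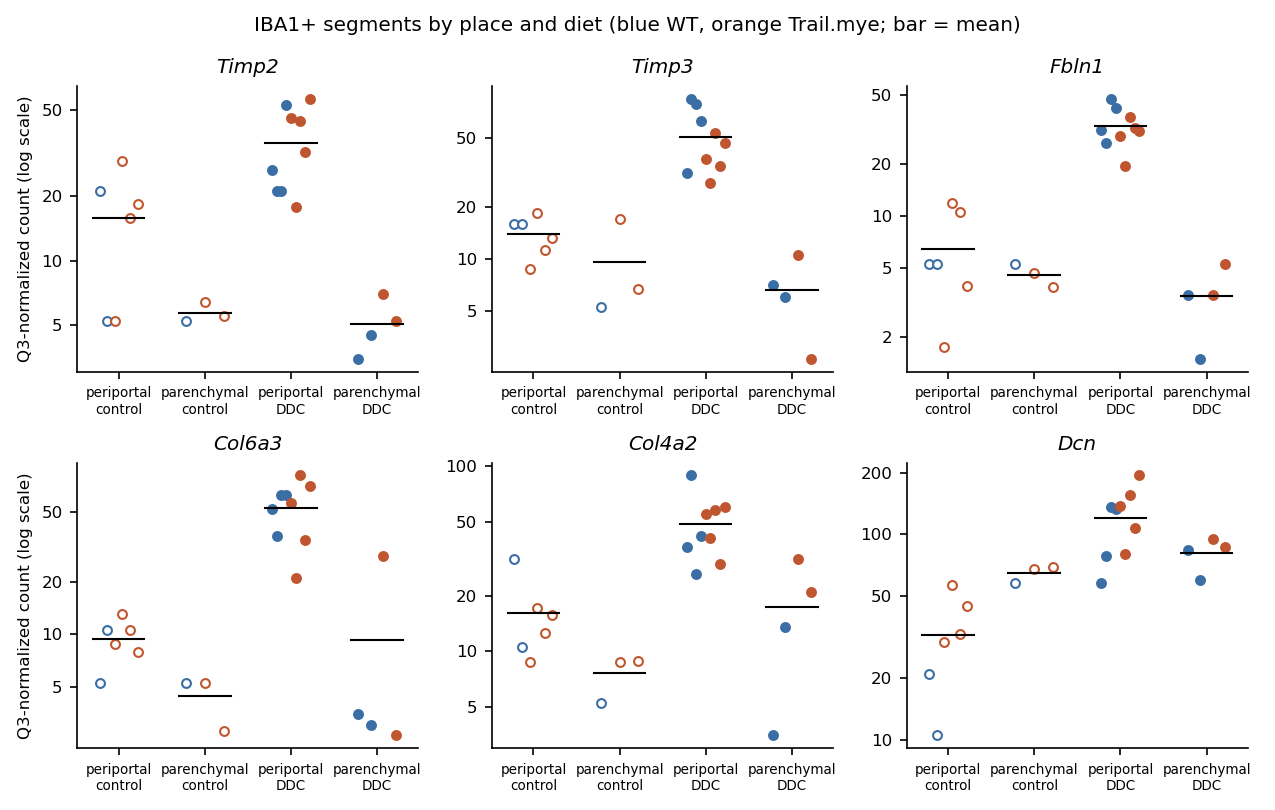
Q3-normalized counts (log scale) of 6 matrix genes in periportal and parenchymal IBA1+ segments by diet (1 point = 1 segment, bar = mean, blue WT, orange Trail.mye, open control diet, filled DDC). For *Timp2*, *Timp3* and *Fbln1* all 9 periportal DDC points lie above the 4 parenchymal DDC points, and for *Dcn* they overlap.

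Genes that fold and trim collagens or control matrix proteases, listed by function, were read from the same fits. Of the 17 of 22 listed folding and trimming genes in the table, 4 rose with DDC in Trail.mye periportal IBA1+ segments and none fell, where 4.2% of all genes rose and 5.18% fell. They were *Serpinh1* (1.71), the collagen chaperone, *Pcolce* (1.39), which speeds the trimming of procollagen, *Fkbp10* (1.17) and *P3h1* (0.93), and the median of the list was 0.51. Of the 13 of 16 listed genes for protease control, *Serpine2* (2.21), *Ctsk* (1.15) and *Ctss* (0.93) rose, and *Plg* (-2.03), which encodes plasminogen and is made by hepatocytes, fell, with a list median of 0.57. In WT periportal IBA1+ segments *Plg* (-1.92) fell, where 0.142% of all genes rose and 1.04% fell. In PanCK+ segments of Trail.mye mice *Colgalt1* (1.55) and *Ctss* (1.46) rose and *Plg* (-1.01) fell, where 1.43% of all genes rose and 0.664% fell.

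Some of these genes lie next to each other in the genome. *Col6a1* and *Col6a2* (chromosome 10), *Dcn* and *Lum* (chromosome 10) and *Col4a1* and *Col4a2* (chromosome 8) each passed in the same direction in Trail.mye periportal IBA1+ segments. The pairs *Adamts1* and *Adamts5* (chromosome 16) and *Mmp3* and *Mmp1a* (chromosome 9) did not pass, and of *Col6a5* and *Col6a6* (chromosome 9) only *Col6a5* did.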

How the data were processed

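The values are those of the GeoMx mouse Whole Transcriptome Atlas in 38 segments. Libraries had been amplified for 18 cycles and read on a NextSeq2000. The deposited expected counts, 1 per gene and segment, follow the authors' quality control, which kept targets above the limit of quantification in more than 10% of ROIs. The submitters' processing notes name bcl2fastq and the build mm10, with no aligner (not given in the sources used here). The deposited signal values are Q3-normalized counts, and a check found 1 scaling factor per segment between them and the expected counts. Values of 3 genes that were not whole were rounded.

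Each contrast was fitted over all 10547 genes by the quasi-likelihood test of edgeR 4.0.16, run in R 4.3.3 (upper-quartile factors at the 75th percentile, no further filter, two-sided, Benjamini-Hochberg adjustment), with a coefficient per group. The negative probe, which names no gene, stayed out. The fits left 12 residual degrees of freedom for PanCK+, 11 for periportal IBA1+ and 4 for parenchymal IBA1+ segments (the last with a term for genotype), 14 for PanCK+ against IBA1+ (ROI as block) and 17 for periportal against parenchymal IBA1+ segments. Standard errors are the log2 fold change over the square root of F. Bounds used a floor of 3 counts per segment and cover counting error only, and amplified reads are not independent molecules.

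PanCK+ and IBA1+ segments share an ROI by design. Over 3089 genes with a mean count of at least 10, their deviations from the group means correlated with a median of 0.0322 (-0.0162 to 0.528), over 0.1 in 5 of the 15 ROIs. No 2 segments held identical values.

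Alternatives were TMM factors, DESeq2 1.42.0, limma 3.58.1 on log2 values with a pseudocount of 1 or 0.5, a filter on low counts, values of 1 set to 0, thinning to the smallest total, no block and leaving out each segment or ROI. The fits by diet and their interaction were added after the data had been seen. The scripts were tested on simulated data. The 61 genes and all lists were chosen with earlier results of these data known. Named are up to 15 called genes per direction and contrast, with segment values for the 3 at each end, and a list of the best known members; other genes, such as *Timp3*, *Col8a1* and those with unadjusted calls, were named after their values had been seen. *Mmp13*, on that list, was not analysed here. Marker lists covered fibroblasts and stellate cells, endothelial cells, pericytes and smooth muscle, neutrophils, macrophages, hepatocytes and cholangiocytes. Plots were drawn with matplotlib 3.10.9 in Python 3.11.15.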

Additional observations from a re-analysis of the deposited data

Results flagged for a closer look

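In 7 of 96 groups of 4 or 5 segments, over 16 genes, 1 segment lay far from the others on the Q3-normalized scale, where chance gives about 1 in 20. In WT DDC PanCK+ segments *Adamts10* read 5.25 in ROI 011 and at most 2.47 elsewhere. In WT DDC periportal IBA1+ segments the segment of ROI 013 was low for *Adamts9* (3.50, with the others at 5.25) and high for *Timp2* (52.5, with the others at 21.0 to 26.3). In Trail.mye CON periportal IBA1+ segments that of ROI 027 was high for *Col6a1* (21.0, with the others at 6.57 to 8.53) and low for *Timp1* (1.31, with the others at 3.50 to 3.94). In Trail.mye CON PanCK+ segments *Dcn* read 42.0 in ROI 029 (the others 23.6 to 26.3) and *Timp2* read 21.0 in ROI 026 (the others 26.3 to 27.3). All 4 *Adamts9* values are 1 count, so that they differ only through the scaling of the segments. *Adamts10* was at 2 counts in ROI 011 and at 1 in the others, and *Timp1* was at 1 count in ROI 027 and at 2 to 6 in the others.

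The difference between PanCK+ and IBA1+ segments differed between the diets, by the interaction term on the log2 scale, for *Fbln1* (-2.89), *Bgn* (-2.42), *Col6a3* (-2.38), *Col5a1* (-2.30), *Timp3* (-2.07), *Mmp2* (-2.01), *Col6a2* (-1.96), *Dcn* (-1.66) and *Col18a1* (1.57). The difference between periportal and parenchymal IBA1+ segments differed between the diets for *Timp3* (2.82).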

How the results depend on the processing

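No result that passed in the diet or genotype comparisons changed direction under any alternative. Over all called genes and alternatives, 1970 values kept direction and call, 245 kept direction and no longer passed, and 14 changed sign. The 1970 include leave-one-out refits, such as 495 for PanCK+ against IBA1+ and 436 for diet in Trail.mye periportal IBA1+. Genes without an adjusted p under an alternative were not counted. After thinning, 12 of 34 and 13 of 30 genes kept their call in these 2 comparisons. After thinning, *Loxl1* turned in PanCK+ against IBA1+ segments (0.0619). In control-fed ROIs alone (added) the same comparison turned for *Loxl1* (0.96), *Col6a3* (0.89), *Timp3* (0.87), *Fbln1* (0.75), *Timp1* (0.73), *Col5a1* (0.71), *Bgn* (0.67), *Mmp2* (0.45), *Col6a2* (0.32), *Adamts10* (0.31), *Fbn2* (0.11), *Adamts2* (0.0688) and *Hspg2* (-0.0304), none of which passed there, with 6 ROIs in place of 15.

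Counts of members called follow. For diet in WT PanCK+ (0), DESeq2 gave 1, limma 3 (pseudocount 1, with 2 higher and 1 lower) and 2 (0.5), and values of 1 set to 0 gave 2. Over all genes these settings called 149, 331, 284 and 163, beside 96 in the main fit. For diet in Trail.mye PanCK+ (1), TMM, DESeq2, values of 1 set to 0 and thinning gave 0. Limma with a pseudocount of 1 gave 3, and the filter 2 of the 11 members left. Over all genes these settings called 167, 175, 259, 58, 272 and 283 of 1012, beside 221 in the main fit. The 2 genes with the filter were 1 higher and 1 lower, and neither was *Hspg2*. For diet in WT periportal IBA1+ (2), DESeq2 gave 7 and limma 15 and 12, each with 1 gene lower. The filter (33 members left) and values of 1 set to 0 each gave 10, all higher, and thinning gave 1, which was lower. Over all genes DESeq2 called 182, limma 434 and 392, and thinning 214, beside 125 in the main fit. With values of 1 set to 0 it was 208, and with the filter 210 of 3662. For diet in Trail.mye periportal IBA1+ (30), thinning gave 13, and the count over all genes went from 989 to 201. For genotype in DDC-fed periportal IBA1+ (0), limma gave 1 with both pseudocounts, beside 20 and 11 of all genes and 2 in the main fit. For PanCK+ against IBA1+ (34), limma gave 21 and 19, the filter 22 of the 26 members left, thinning 12 and control-fed ROIs 3. Over all genes these settings called 1373, 1330, 947 of 2030, 378 and 542, beside 1881 in the main fit. Leaving out the replicate block gave 33, of which 33 were shared, and 1654 of all genes. For periportal against parenchymal IBA1+ (15), thinning gave 6 and control-fed segments 0. Over all genes these were 77 and 15, beside 235 in the main fit. For the interaction with diet of the 2 location contrasts (9 and 1), the filter gave 14 of 26 and 6 of 33 members left. Thinning gave 2 and 0, and for the second TMM gave 0, DESeq2 4 and limma 6. Over all genes the filter called 245 of 2030 and 70 of 3768, and thinning 10 and 2. The main fits called 226 and 9 of all genes. For the second, TMM called 7, DESeq2 113 and limma 30 of all genes.

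Leaving out 1 segment or ROI gave 0 to 2 for Trail.mye PanCK+, 0 to 4 for WT periportal IBA1+, 26 to 31 for Trail.mye periportal IBA1+, 0 to 1 for genotype in DDC-fed PanCK+, 31 to 35 for PanCK+ against IBA1+, 9 to 16 for periportal against parenchymal, 6 to 10 and 0 to 2 for the interactions, and 0 in the other comparisons. TMM moved the all-gene median from -0.17 to 0.02 in WT PanCK+ and from 0.18 to -0.06 in Trail.mye PanCK+. The causes were not tested. In WT CON periportal IBA1+ segments 47 and 48 of the 61 genes were at the lowest count. Of those at it in both segments, 12 had a bound above 1-fold on the diet change. For the others no such bound could be given.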
